A study of Homo sapiens with 12 samples.

Results

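The aminoacyl-tRNA synthetases are the enzymes that attach each amino acid to its transfer RNA, and their transcripts were followed here in Sk-hep1 cells given growth medium or high-fat medium. A list of 35 symbols was used, 19 for cytosolic and 16 for mitochondrial enzymes. A member was measured if at least 1 probe set of the array carried its symbol and no other, and each gene was read from its probe set with the highest mean over the 12 arrays. This gave 32 members, 17 cytosolic and 15 mitochondrial, with 67 probe sets, of 19775 genes measured in this way. MARS1, QARS1 and TARS2 were left out because their probe sets carry a second symbol. The list holds no enzyme for aspartate. All 32 members passed the filter on low values, which asked for log2 4 or more on at least 3 arrays and kept 13130 genes. On all 12 arrays 31 members stood at log2 4 or more, and PARS2 did so on 9.

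Sk-hep1 is an established human cell line, described in the labels as an endothelial type of adenocarcinoma from liver ascites. The 4 groups of 3 arrays were growth medium (GM, on a DMEM base) at 12 h, high-fat medium (HFM, on a DMEM/F12 base) at 12 h, and the same media at 24 h, so the basal medium differed together with the fat. Which fat HFM contains was not stated in the labels used. The labels do not say whether the arrays of a group came from different cultures. The p-values thus reflect the spread between these arrays alone, which may be technical, and their precision is set by how few arrays there are. Of 12 endothelial markers, ROBO4 was at log2 4 or more on all 12 arrays, PECAM1, ICAM2 and NOS3 were so on 3 or more, and CDH5, VWF, KDR, TIE1, TEK, ERG, EMCN and CLDN5 were below it on every array. Of 9 measured hepatocyte markers 4 reached that level on 3 or more arrays. TTR, SERPINA1 and CYP3A4 reached it on all 12 arrays and TF on 10, while ALB was below it on all. Of 7 leukocyte markers 3 reached it on 3 or more arrays, CD79A on 12, CD14 on 11 and CORO1A on 10. PTPRC was below it on all. The summed linear values of the endothelial markers lay between 320.8 and 325.1 in GM and between 186.6 and 198.4 in HFM at 12 h, and between 226.2 and 244.3 in GM and between 160.7 and 185.8 in HFM at 24 h. The leukocyte sum was likewise lower in HFM, at least 203.5 in GM and at most 163.7 in HFM at 12 h. At 24 h it was at least 142.2 in GM and at most 136.9 in HFM. The hepatocyte sum was at least 174.9 in GM and at most 165.7 in HFM at 12 h. At 24 h it was higher in HFM, at least 173.6 against at most 160.7 in GM. A lower sum in HFM was thus not particular to the endothelial list, in which ROBO4 had the highest mean in each group. In bulk RNA, fewer cells of a type and less RNA per cell cannot be told apart.

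A synthetase recognises its amino acid and the transfer RNAs that decode it, and uses ATP to join them. The cytosol and the mitochondrion translate separately, so most amino acids have a pair of enzymes, both encoded in the nucleus, while GARS1 and KARS1 each make a cytosolic and a mitochondrial form from a single gene. Several cytosolic enzymes sit together in the multisynthetase complex. When charging fails, uncharged transfer RNA activates the kinase GCN2 (EIF2AK4), eIF2 is phosphorylated and ATF4 is translated, and genes of cytosolic synthetases are among the known targets of ATF4.

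Some properties of the arrays touched the values below. ACTB is read on these arrays at both ends of its transcript, and the excess of the 3' over the 5' signal serves as a check of RNA integrity. In log2 units this excess at 12 h was 0.89 ± 0.03 (SD, n = 3) for GM and 0.84 ± 0.13 for HFM, and at 24 h it was 1.07 ± 0.05 for GM and 1.58 ± 0.06 for HFM. The GAPDH excess at 24 h was 0.16 ± 0.02 for GM and 0.27 ± 0.03 for HFM. The hybridisation controls, which are added to the sample and do not come from the cells, stood between 9.53 and 9.61 on the 3 GM arrays and HFM replicate 1 of 12 h, and between 9.11 and 9.35 on the other 8 arrays. HFM replicate 1 of 12 h had the lowest mean correlation with its own group, and 27 of the 32 members were higher on it than on the mean of the other HFM arrays of 12 h, by a median of 0.24. The part of RNA quality and of this array in the results was not tested beyond the values without the array given below.

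At 24 h in HFM more mitochondrial than cytosolic enzymes were called, most of them lower. A gene was called when its p from limma, adjusted by Benjamini and Hochberg's method over all genes tested, was under 0.05. Of the 15 mitochondrial members 8 fell, 2 rose and 5 were not called. Of the 17 cytosolic members 3 fell, 1 rose and 13 were not called. Over all genes tested 58.1% were called, 37.5% lower and 20.6% higher. The mitochondrial members, at 53.3% lower, were above that background. The cytosolic members, at 17.6% lower and 5.9% higher, were below it in both directions. The background was larger among genes of higher level. With the filter raised to log2 6, 46.1% of 9403 genes were called lower and 25.5% higher. In that fit VARS2 was also called lower (-0.23, limma adjusted p = 0.046). No test set the compartments against each other. The median log2 change was -0.24 for the mitochondrial members and -0.05 for the cytosolic members, and -0.08 for all genes tested. The arrays of HFM and GM did not overlap for 12 mitochondrial and 8 cytosolic members, against 68.7% of all genes. The ACTB gap was widest on these HFM arrays, as given above, and its part in these counts was not tested.

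The level of all genes depended on the scaling at this time. With each array centred on the median of its tested genes, the median of all genes moved from -0.08 to 0.10, and 37.0% of genes were called higher and 26.2% lower. The split of the cytosolic members then turned to 10 higher and 2 lower, and that of the mitochondrial members to 5 higher and 7 lower. Against these shares the mitochondrial members, at 46.7% lower, lay above the background and, at 33.3% higher, near it. The cytosolic members, at 58.8% higher, then lay above the background in that direction and, at 11.8% lower, below it in the other. After a repeated quantile normalisation 2 cytosolic members were higher and 3 lower, and 3 mitochondrial members were higher and 8 lower, with 29.8% of all genes called higher and 30.9% lower. PARS2, MARS2, AARS2, FARS2, SARS2, CARS2 and YARS2 were called lower with the centring as well, and so were TARS1 and FARSA of the cytosolic members.

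**Figure D1:**
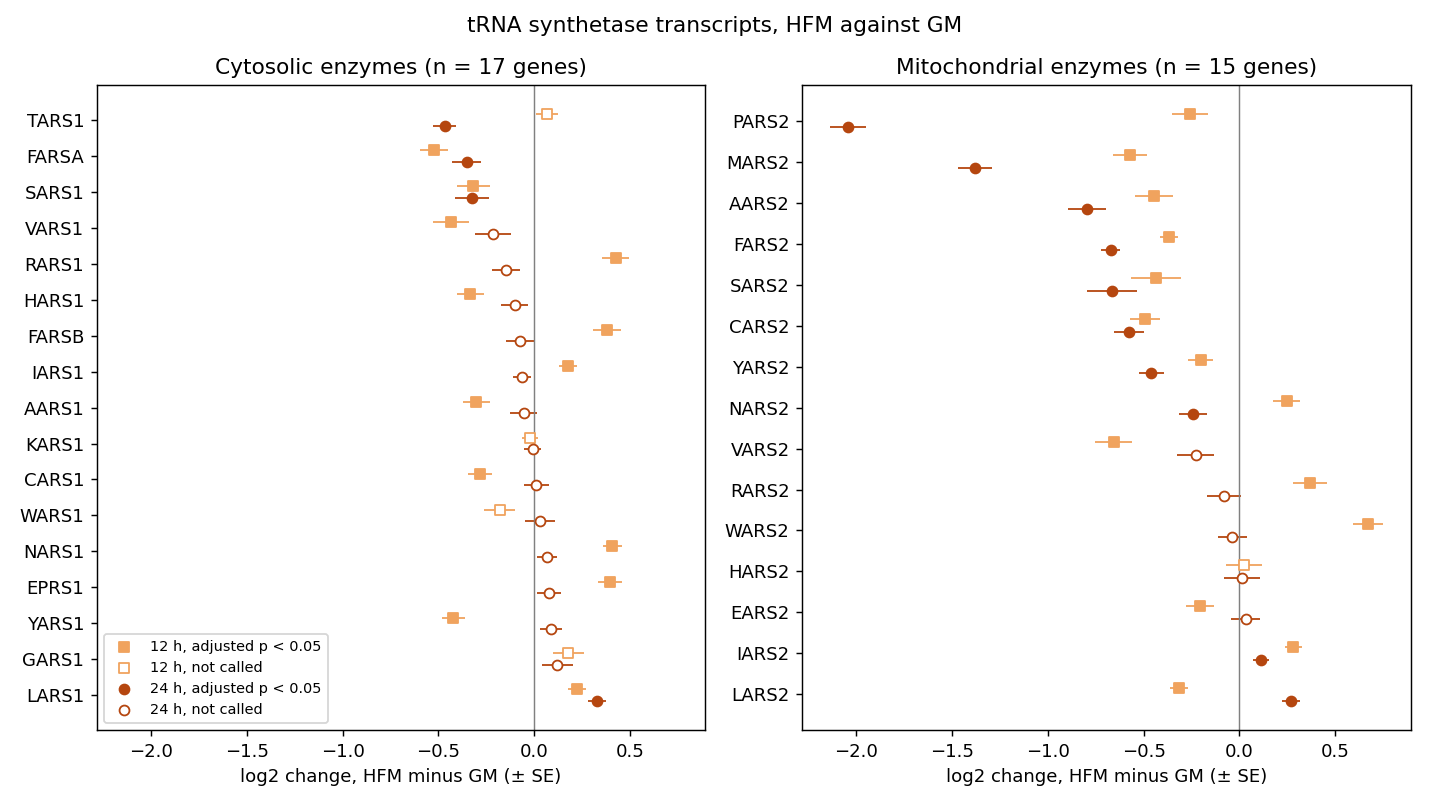
Log2 change in HFM minus GM for each of the 17 cytosolic (left) and 15 mitochondrial (right) synthetase genes at 12 h (squares) and 24 h (circles), with standard errors, 3 arrays per group; filled symbols passed an adjusted p of 0.05 and open symbols were not called. PARS2 at -2.05 and MARS2 at -1.38 lie far to the left at 24 h, while the cytosolic genes stay between -0.47 and 0.33.

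PARS2, which charges proline in the mitochondrion, showed the greatest change of the 32 members at 24 h. Its log2 values were 5.91, 5.79 and 5.76 in GM and 3.65, 3.81 and 3.87 in HFM at 24 h. All 3 HFM arrays lay far below the GM arrays and under the log2 level of 4 used for the filter. With HFM set at that level PARS2 was at least 3.54-fold lower. The measured difference on the log2 scale was -2.05 ± 0.09 (SE), with a limma adjusted p of 5.1e-09, and each value of PARS2 in HFM at 24 h given below is likewise one measured under log2 4. At 12 h PARS2 stood at 6.28, 6.39 and 6.35 in GM and at 6.29, 6.07 and 5.90 in HFM. Those groups overlapped, and although PARS2 was called lower at 12 h (-0.26 ± 0.09, limma adjusted p = 0.032), the call was lost without GM replicate 2 (-0.23, limma adjusted p = 0.093) or 3 (-0.25, 0.071) and without HFM replicate 2 (-0.25, 0.071) or 3 (-0.16, 0.13).

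MARS2 charges methionine in the mitochondrion. Its values at 24 h were 6.24, 6.36 and 6.08 in GM and 4.94, 4.70 and 4.89 in HFM. Every HFM array was more than a log2 unit below every GM array. The fall of 1.38 ± 0.09, 2.61-fold, had a limma adjusted p of 8.5e-08. At 12 h MARS2 stood at 6.48, 6.50 and 6.50 in GM and at 6.07, 5.89 and 5.81 in HFM, with no overlap, and it had fallen by 0.57 ± 0.09 (limma adjusted p = 0.0002).

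AARS2, the mitochondrial alanine enzyme, stood at 6.71, 6.72 and 6.56 in GM and at 5.97, 5.63 and 6.0 in HFM at 24 h. The groups did not overlap, and the fall was 0.79 ± 0.10 (limma adjusted p = 2.4e-05). A second probe set of AARS2 fell as well, by 0.60. At 12 h its values were 7.41, 7.42 and 7.47 in GM and 7.14, 6.96 and 6.87 in HFM, again apart, with a fall of 0.45 ± 0.10 (limma adjusted p = 0.0022).

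FARS2, the single-chain mitochondrial phenylalanine enzyme, was at 8.70, 8.77 and 8.81 in GM and at 8.14, 8.05 and 8.07 in HFM at 24 h. The HFM arrays were close together and below all GM arrays, and the fall was 0.67 ± 0.05 (limma adjusted p = 1.9e-07). Its second probe set fell by 0.42. At 12 h the values were 9.35, 9.38 and 9.38 in GM and 9.01, 8.98 and 9.01 in HFM. These groups were apart too, with a fall of 0.37 ± 0.05 (limma adjusted p = 4.7e-05).

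SARS2, the mitochondrial serine enzyme, had values of 6.40, 6.36 and 6.37 in GM and 5.81, 5.66 and 5.67 in HFM at 24 h. The groups were apart, with a fall of 0.66 ± 0.13 (limma adjusted p = 0.00089). At 12 h it was at 7.28, 7.23 and 7.19 in GM and at 7.21, 6.59 and 6.60 in HFM. HFM replicate 1 lay within the GM range and the other HFM arrays far below it. The fall at 12 h was 0.43 ± 0.13 (limma adjusted p = 0.013), and the call was lost without HFM replicate 2 or without HFM replicate 3 (-0.33, limma adjusted p = 0.057 in each).

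**Figure D2:**
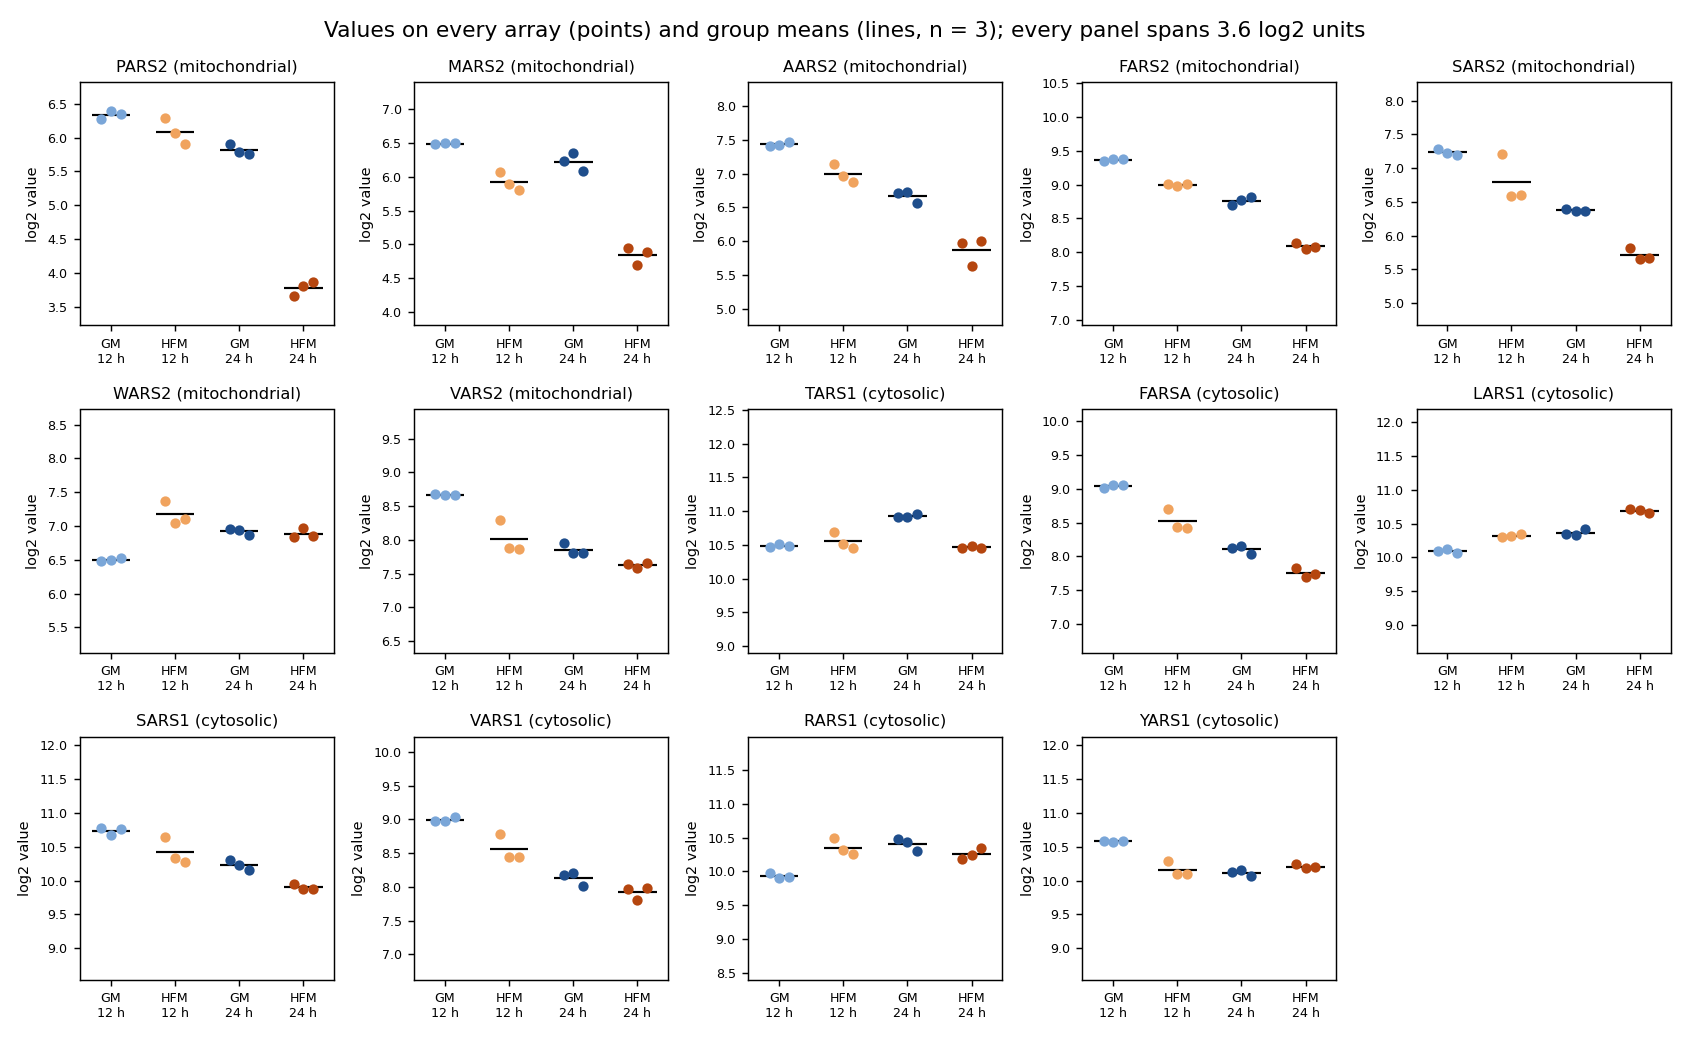
Log2 values on each array (points) with group means (lines, n = 3) for the 14 synthetase genes described array by array, in the order GM 12 h, HFM 12 h, GM 24 h and HFM 24 h; each panel spans 3.6 log2 units around its own gene, and levels of different panels are not comparable. In the PARS2 panel the 3 HFM arrays of 24 h lie between 3.65 and 3.87 and all other arrays between 5.76 and 6.39.

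The remaining mitochondrial members changed less. CARS2, for cysteine, fell by 0.49 ± 0.08 at 12 h and by 0.58 ± 0.08 at 24 h (limma adjusted p = 0.00024 and 5e-05), from group means of 9.74 ± 0.04 and 8.97 ± 0.08 (SD, n = 3) in GM. Its 2 weaker probe sets were not called at 24 h, and with the mean of its probe sets CARS2 lost both calls (-0.11 and -0.12). YARS2, for tyrosine, fell by 0.20 ± 0.07 at 12 h and by 0.46 ± 0.07 at 24 h (limma adjusted p = 0.02 and 7.5e-05), and the 12 h call was lost without GM replicate 2 (-0.17, limma adjusted p = 0.079). NARS2, for asparagine, rose by 0.25 ± 0.07 at 12 h and fell by 0.24 ± 0.07 at 24 h, though with each array centred it stood at -0.06 at 24 h and was not called. EARS2, for glutamate, fell by 0.21 ± 0.07 at 12 h (limma adjusted p = 0.031), but the call was lost on leaving out any 1 of the 3 GM arrays, HFM replicate 2 or HFM replicate 3, at -0.17 to -0.22. At 24 h EARS2 was at 0.03 ± 0.07.

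A few mitochondrial members went up. WARS2, for tryptophan, was at 6.48, 6.50 and 6.52 in GM and at 7.37, 7.05 and 7.10 in HFM at 12 h. All HFM arrays were above the GM arrays, and the rise of 0.67 ± 0.08 (limma adjusted p = 1.8e-05) was the highest among the members at 12 h. At 24 h WARS2 was at 6.95, 6.94 and 6.87 in GM and at 6.83, 6.97 and 6.85 in HFM, with overlapping groups (-0.04 ± 0.08, not called), while its second probe set fell by 0.43. RARS2, for arginine, rose by 0.37 ± 0.09 at 12 h (limma adjusted p = 0.0037) and was at -0.08 ± 0.09 at 24 h. IARS2, for isoleucine, rose by 0.28 ± 0.04 at 12 h (limma adjusted p = 0.00018). Its rise of 0.11 ± 0.04 at 24 h (limma adjusted p = 0.041) lost its call on leaving out GM replicate 1, GM replicate 2 or any 1 of the 3 HFM arrays, at 0.10 to 0.12.

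LARS2 and VARS2 had different courses. LARS2, for leucine, fell by 0.31 ± 0.05 at 12 h and rose by 0.27 ± 0.05 at 24 h (limma adjusted p = 0.00012 and 0.00029). VARS2, for valine, was at 8.68, 8.66 and 8.66 in GM and at 8.29, 7.88 and 7.87 in HFM at 12 h. All HFM arrays were below the GM arrays, replicate 1 the least so, and the fall of 0.66 ± 0.10 (limma adjusted p = 0.00014) was the deepest of the members at that time. At 24 h VARS2 was at 7.95, 7.81 and 7.80 in GM and at 7.64, 7.58 and 7.65 in HFM, apart but not called (-0.23 ± 0.10, limma adjusted p = 0.063). HARS2, for histidine, was at 0.02 ± 0.09 at both times. Without HFM replicate 1 of 12 h it stood at -0.12 and was called lower (limma adjusted p = 0.031).

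Among the cytosolic enzymes at 24 h the 3 that fell were TARS1, FARSA and SARS1. TARS1, for threonine, was at 10.92, 10.91 and 10.96 in GM and at 10.45, 10.48 and 10.46 in HFM. The groups were tight and apart, and the fall was 0.47 ± 0.06 (limma adjusted p = 2.6e-05). At 12 h TARS1 was at 10.47, 10.51 and 10.48 in GM and at 10.69, 10.52 and 10.45 in HFM, overlapping (0.07 ± 0.06, not called). A far weaker second probe set of TARS1, at log2 4 or more on 3 arrays only, stood 1.68 higher in HFM at 24 h, so the mean of the probe sets stood at 0.61, the opposite direction.

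FARSA, the catalytic alpha subunit of the cytosolic phenylalanine enzyme, was at 8.13, 8.15 and 8.04 in GM and at 7.83, 7.69 and 7.74 in HFM at 24 h, with no overlap and a fall of 0.35 ± 0.07 (limma adjusted p = 0.0015). Its second probe set fell by 0.53. At 12 h it was at 9.01, 9.06 and 9.05 in GM and at 8.70, 8.43 and 8.42 in HFM, and it fell by 0.52 ± 0.07 (limma adjusted p = 0.0001), the deepest fall of a cytosolic member at that time. FARSB, the beta subunit of the same enzyme, instead rose by 0.38 ± 0.07 at 12 h (limma adjusted p = 0.00089), and was at -0.07 ± 0.07 at 24 h. The 2 subunits of a single enzyme thus had calls in opposite directions at 12 h.

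SARS1, for serine, was at 10.30, 10.23 and 10.16 in GM and at 9.95, 9.88 and 9.88 in HFM at 24 h. The groups were apart, with a fall of 0.32 ± 0.09 (limma adjusted p = 0.007) that lost its call with each array centred (-0.14, limma adjusted p = 0.077). At 12 h it was at 10.78, 10.67 and 10.76 in GM and at 10.65, 10.33 and 10.28 in HFM, again apart, with a fall of 0.32 ± 0.09 (limma adjusted p = 0.0082). Its second probe set rose at both times, by 0.55 and 0.83, and the mean of its probe sets stood at 0.12 and 0.26. SARS1 is therefore uncertain in direction between its probe sets.

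LARS1, the cytosolic leucine enzyme, was the cytosolic member that rose at 24 h. It was at 10.35, 10.33 and 10.42 in GM and at 10.72, 10.70 and 10.66 in HFM, and all HFM arrays were above the GM arrays. The rise was 0.33 ± 0.05 (limma adjusted p = 6.7e-05), and 2 of its 3 other probe sets rose as well, by 0.48 and 0.58. At 12 h LARS1 was at 10.09, 10.13 and 10.06 in GM and at 10.30, 10.31 and 10.34 in HFM, also apart, with a rise of 0.22 ± 0.05 (limma adjusted p = 0.0014). Without GM replicate 3 of 24 h the count of cytosolic members that fell at 24 h was 5 in place of 3, with RARS1 (-0.20, limma adjusted p = 0.047) and VARS1 (-0.28, 0.038) added. In that fit 35.9% of all genes were called lower.

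At 12 h the cytosolic enzymes moved in both directions. Of the 17 cytosolic members 6 rose, 7 fell and 4 were not called, and of the 15 mitochondrial members 4 rose, 10 fell and 1 was not called. Over all genes tested 61.9% were called at 12 h, 28.9% higher and 33.0% lower. The cytosolic shares, 35.3% higher and 41.2% lower, were near that background, while the mitochondrial share called lower was 66.7%. The medians were -0.02 for cytosolic and -0.26 for mitochondrial members, and -0.07 for all genes. The arrays did not overlap for 14 cytosolic and 12 mitochondrial members, against 63.6% of all genes. Without HFM replicate 1 the counts were 6 higher and 8 lower of the cytosolic members, and 4 higher and 11 lower of the mitochondrial members, with 30.1% of all genes called higher and 38.2% lower. Leaving out each array in turn gave 7 to 11 mitochondrial members lower, with 28.1% to 38.2% of all genes called lower. With a term for the level of the hybridisation controls, which leaves replicate 1 as the only HFM array of 12 h compared with GM, they were 8 higher and 3 lower of the cytosolic members and 5 higher and 6 lower of the mitochondrial members, and 33.6% of all genes were then called higher and 27.2% lower.

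Of the 5 measured members of the multisynthetase complex, EPRS1, IARS1, LARS1 and RARS1 rose at 12 h and KARS1 was not called, so 4 rose and 0 fell, with a median of 0.22, against 28.9% of all genes called higher. The 4 that rose did so also without HFM replicate 1 and with each array centred. Of the 12 cytosolic members outside the complex 2 rose, FARSB and NARS1, and 7 fell, with a median of -0.29. No test set the complex against the others. AIMP1, the only gene tested of the 3 listed scaffolds of the complex, rose by 0.87 ± 0.06 at 12 h (limma adjusted p = 2.5e-07). The same pattern was present in GM alone from 12 to 24 h. There EPRS1, IARS1, LARS1 and RARS1 also rose and 0 of the 5 fell (median 0.36), against 29.4% of all genes called higher, and AIMP1 rose by 0.92. Of the 12 outside the complex 3 rose and 8 fell in GM over time (median -0.415), against 40.5% of all genes called lower. Between the media at 24 h 1 of the 5 in the complex, LARS1, was higher in HFM and 4 were not called. With each array centred 4 of the 5 were called higher, as were 10 of all 17 cytosolic members and 37.0% of all genes.

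RARS1, the cytosolic arginine enzyme and a member of the complex, was at 9.97, 9.90 and 9.91 in GM and at 10.49, 10.31 and 10.26 in HFM at 12 h. The HFM arrays were all above GM, and the rise was 0.43 ± 0.07 (limma adjusted p = 0.00032). At 24 h RARS1 was at 10.48, 10.43 and 10.30 in GM and at 10.19, 10.24 and 10.34 in HFM, overlapping and not called (-0.15 ± 0.07). EPRS1, which charges glutamate and proline with a single chain, rose by 0.40 ± 0.06 at 12 h and was at 0.08 ± 0.06 at 24 h. At 24 h its other 2 probe sets were called in opposite directions, at -0.34 and 0.27. IARS1, for isoleucine, rose by 0.18 ± 0.05 at 12 h and was at -0.06 ± 0.05 at 24 h. KARS1, for lysine, was at -0.02 ± 0.04 at 12 h and -0.01 ± 0.04 at 24 h.

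Outside the complex VARS1, for valine, was at 8.97, 8.97 and 9.04 in GM and at 8.79, 8.45 and 8.44 in HFM at 12 h. The HFM arrays were all below GM, and the fall was 0.43 ± 0.09 (limma adjusted p = 0.0019). At 24 h its values were 8.18, 8.21 and 8.01 in GM and 7.97, 7.81 and 7.98 in HFM, apart but not called (-0.21 ± 0.09, limma adjusted p = 0.069). YARS1, for tyrosine, was at 10.59, 10.57 and 10.58 in GM and at 10.29, 10.09 and 10.09 in HFM at 12 h, a fall of 0.42 ± 0.06 (limma adjusted p = 8.8e-05) with no overlap. At 24 h YARS1 was at 10.12, 10.16 and 10.07 in GM and at 10.24, 10.18 and 10.20 in HFM, apart but not called (0.09 ± 0.06). The second, weaker probe set of YARS1 was at 0.13 and not called at 12 h.

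AARS1 (alanine), CARS1 (cysteine) and HARS1 (histidine) fell at 12 h by 0.30, 0.28 and 0.33, each with a standard error of 0.06 or 0.07, and were at -0.05, 0.01 and -0.10 at 24 h, not called. NARS1, for asparagine, rose by 0.41 ± 0.05 at 12 h and was at 0.07 ± 0.05 at 24 h. GARS1, for glycine, was at 0.18 ± 0.08 and 0.12 ± 0.08, and WARS1, the tryptophan enzyme also known as an interferon-induced gene, at -0.18 ± 0.08 and 0.03 ± 0.08, without a call at either time. WARS1 was called lower at 12 h without HFM replicate 1 (-0.29, limma adjusted p = 0.00031), and GARS1 was called higher without HFM replicate 2 (0.23, limma adjusted p = 0.048) or 3 (0.24, 0.034).

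The HFM effect differed between times for 18 of the 32 members, tested as the difference of the 2 effects. Of the cytosolic members 2 had a higher effect at 24 h than at 12 h and 6 a lower one, and of the mitochondrial members 2 and 8. The medians of the difference were 0.01 and -0.26. Over all genes 52.8% were called, 19.4% higher and 33.4% lower. The mitochondrial share of 53.3% lower was above this background and the cytosolic share of 35.3% near it. With the filter raised to log2 6, 20.1% of all genes were called higher and 42.8% lower. In that fit AARS1 was also called higher (0.25) and AARS2 lower (-0.35, limma adjusted p = 0.041 for each). Without HFM replicate 1 of 12 h, 7 cytosolic members in place of 2 had a higher effect at 24 h, and the share of all genes called higher was 26.0%. The difference was -1.79 ± 0.13 for PARS2 (limma adjusted p = 6.2e-07) and -0.81 ± 0.13 for MARS2 (limma adjusted p = 0.0002). For WARS2 it was -0.71 ± 0.11 (limma adjusted p = 0.00019). In the cytosol it was -0.57 ± 0.10 for RARS1, -0.54 ± 0.08 for TARS1 and 0.51 ± 0.08 for YARS1 (limma adjusted p = 0.00052, 0.00021 and 0.00031). The TARS1 difference turned to 0.36 with the mean of its probe sets, and the YARS1 difference lost its call without its _s_at probe set (0.16, limma adjusted p = 0.53).

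Most members differed between the times in GM. From 12 to 24 h in GM 7 cytosolic members rose and 8 fell, and 3 mitochondrial members rose and 10 fell, while 69.9% of all genes were called, 29.4% higher and 40.5% lower. The mitochondrial share that fell, 66.7%, was above that background, and the cytosolic shares, 41.2% up and 47.1% down, lay above it by less. All 17 cytosolic and 13 mitochondrial members had no overlap between the times, against 78.9% of all genes. FARSA fell by 0.93 ± 0.07 and VARS1 by 0.86 ± 0.09, and NARS1 rose by 0.64 ± 0.05. Among mitochondrial members SARS2 fell by 0.86 ± 0.13 and VARS2 by 0.81 ± 0.10 (limma adjusted p of these 5 changes between 7.8e-07 and 0.00011). PARS2 fell by 0.52 ± 0.09 and MARS2 by 0.27 ± 0.09. The GM arrays of 12 h and of 24 h also differed in the hybridisation controls. A term for these controls could be estimated only from HFM replicate 1 of 12 h against the other HFM arrays of 12 h. With it the GM medians went from -0.09 to 0.00 for cytosolic and from -0.36 to -0.22 for mitochondrial members. The median of all genes went from -0.12 to -0.03.

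In HFM 3 cytosolic members rose and 6 fell from 12 to 24 h, and 1 mitochondrial member rose and 11 fell, against 63.1% of all genes called, 20.1% higher and 43.1% lower. The cytosolic shares, 17.6% up and 35.3% down, were near that background, and the mitochondrial share that fell, 73.3%, was above it. With the filter raised to log2 6, 24.6% of all genes were called higher and 52.0% lower. With each array centred 9 cytosolic members rose, against 39.1% of all genes. The arrays did not overlap for 11 cytosolic and 12 mitochondrial members, against 65.9% of all genes. PARS2, at -2.31 ± 0.09, was at least 4.25-fold lower with its arrays of 24 h set at log2 4. AARS2 fell by 1.12 ± 0.10, SARS2 by 1.09 ± 0.13 and MARS2 by 1.08 ± 0.09 (limma adjusted p of these 4 between 3.2e-09 and 1.7e-05). LARS1 rose by 0.38 ± 0.05 (limma adjusted p = 1.8e-05). Without HFM replicate 1 of 12 h, 7 cytosolic members in place of 3 rose, with 21.8% of all genes called higher. The 2 time comparisons share arrays with the comparisons of media at each time, so their values are given side by side only.

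The compartments were also followed array by array, as the median over members of the difference from each gene's mean in GM at 12 h. For the cytosolic members it was -0.01 ± 0.04 (SD, n = 3) in HFM at 12 h, -0.09 ± 0.04 in GM at 24 h and -0.10 ± 0.02 in HFM at 24 h. For the mitochondrial members it was -0.27 ± 0.10, -0.37 ± 0.14 and -0.41 ± 0.05 in the same groups. The mitochondrial median was lower than the cytosolic median on each of these 9 arrays, and the gap between them was 0.25 ± 0.07, 0.28 ± 0.10 and 0.32 ± 0.06. For all genes tested the median was -0.05, -0.11 and -0.19. The gap in GM at 24 h was thus within the spread of that in HFM at either time, and no test was run on these medians.

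**Figure D3:**
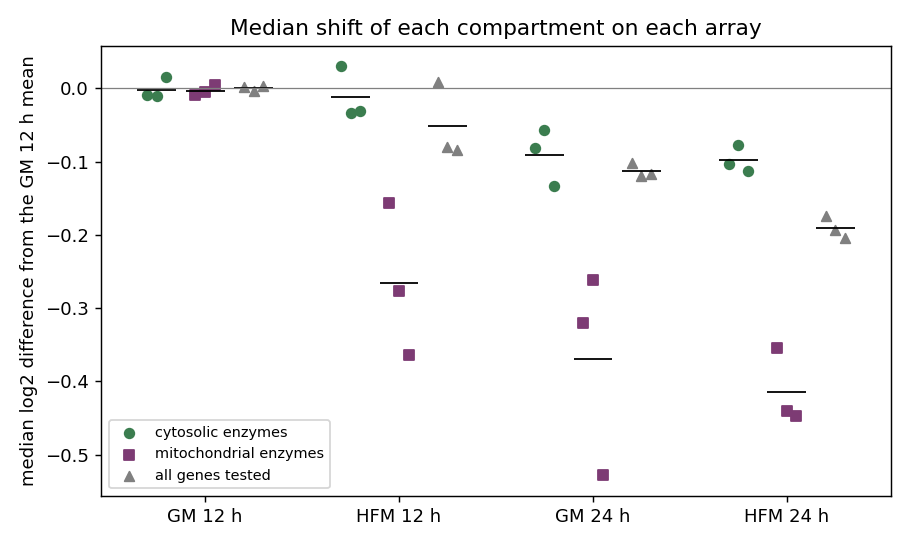
Median log2 difference from the GM 12 h mean over the 17 cytosolic members (circles), the 15 mitochondrial members (squares) and all 13130 genes tested (triangles), for each array in the 4 groups, with group means as lines. The mitochondrial medians of the 9 arrays outside GM 12 h lie below the cytosolic medians of the same arrays.

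Enzymes for the same amino acid were set side by side in 15 cytosolic and mitochondrial pairs, counting FARSA and FARSB each against FARS2 and EPRS1 against EARS2 and PARS2, so that these pairs share members. For each array the difference between the 2 genes was taken, and the change of this difference in HFM was read. At 24 h the mitochondrial gene had the lower change in 12 of the 15 pairs, with a median gap of 0.31. In 10 pairs the HFM and GM arrays did not overlap, 8 of them with the mitochondrial gene lower. In the other 2, HARS1 with HARS2 and IARS1 with IARS2, the cytosolic gene was lower. Such a share was not computed for pairs of other genes, and of all single genes 68.7% did not overlap at 24 h. The gap was 2.12 ± 0.10 for EPRS1 and PARS2, 0.74 ± 0.10 for AARS1 and AARS2, 0.60 ± 0.05 for FARSB and FARS2, 0.59 ± 0.03 for CARS1 and CARS2, and 0.55 ± 0.07 for YARS1 and YARS2 (SE). Each of these reached 0.1 in the two-sided exact permutation test, below which groups of 3 cannot go, and 0.15 after Benjamini-Hochberg adjustment over the 15 pairs.

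At 12 h 9 pairs did not overlap, 7 with the mitochondrial gene lower and 2 with the cytosolic gene lower, and the median gap was 0.14. Of all single genes 63.6% did not overlap at 12 h, and again no share over other pairs was computed. WARS1 and WARS2 had a gap of -0.85 ± 0.03, with the cytosolic gene lower, and FARSB and FARS2 had a gap of 0.75 ± 0.09. The smallest adjusted p by the exact permutation test was 0.1667. A gap within an array does not depend on the centring of that array.

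**Figure D4:**
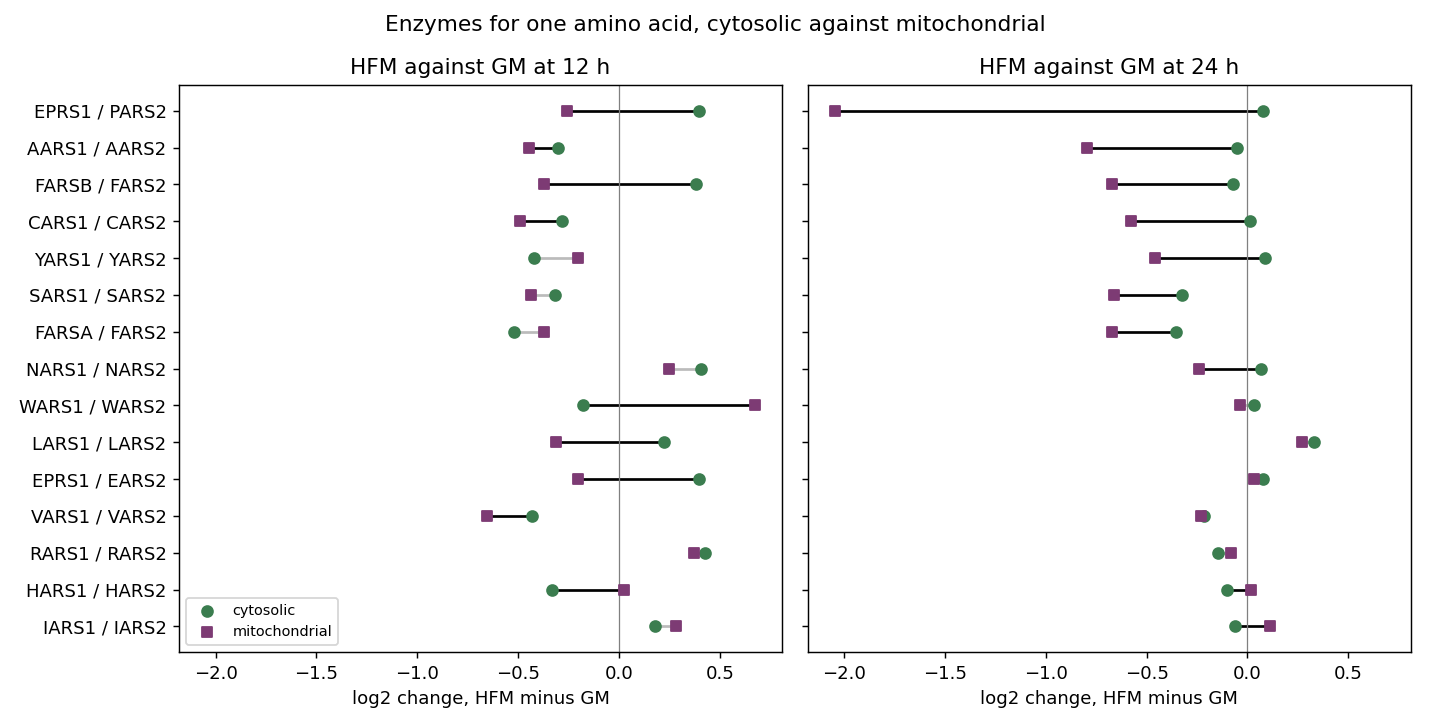
Log2 change in HFM minus GM of the cytosolic (circle) and the mitochondrial (square) enzyme for the same amino acid, at 12 h (left) and 24 h (right), in 15 pairs ordered by the gap at 24 h; a black line joins pairs whose HFM and GM arrays did not overlap in the difference of the 2 genes, and a grey line joins the others. At 24 h 10 lines are black, and EPRS1 with PARS2 has the widest gap at 2.12.

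The probe sets of a member did not always move together. Of the 32 members 18 had more than 1 probe set that passed the filter. At 24 h CARS1, EPRS1, SARS1 and TARS1 had probe sets called in opposite directions, and at 12 h SARS1 alone did. PARS2, MARS2 and SARS2 each rest on a single probe set, and so does YARS2.

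Promoters were read for the members, since genes of several cytosolic synthetases are known to carry an element of the C/EBP-ATF type. RefSeq promoter sequences on GRCh38.p14, from 250 bases before to 50 after the start, were held for 27 of the 32 members, 14 cytosolic and 13 mitochondrial. The letters TGATGNAA, the core of that element, were searched on both strands. They were present in at least 1 promoter of 6 of the 14 cytosolic members and 1 of the 13 mitochondrial members, and in 4.46% of 27305 genes, or 3.62% of 35116 promoters. The windows of 30 bases are shown because they carry the match, on the strand that reads it, with the 8 matched bases in capitals. In the genome they are chr16:70289675-70289704 for AARS1, chr11:3057407-3057436 for CARS1, chr7:30594834-30594863 for GARS1, chr9:92293692-92293721 for IARS1, chr18:57621804-57621833 for NARS1, chr5:33440956-33440985 for TARS1 and chr12:32756076-32756105 for YARS2. The GARS1, TARS1, CARS1, IARS1 and AARS1 matches are on the strand opposite to the gene, and those of AARS1, CARS1, IARS1, NARS1 and YARS2 belong to genes on the minus strand.
AARS1: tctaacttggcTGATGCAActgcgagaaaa
CARS1: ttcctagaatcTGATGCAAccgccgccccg
GARS1: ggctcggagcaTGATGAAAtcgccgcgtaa
IARS1: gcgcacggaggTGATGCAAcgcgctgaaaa
NARS1: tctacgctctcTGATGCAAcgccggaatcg
TARS1: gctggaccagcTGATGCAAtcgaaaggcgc
YARS2: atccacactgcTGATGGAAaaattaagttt

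The 6 cytosolic members with the match did not share a direction. At 24 h TARS1 fell and the other 5 were not called, and at 12 h IARS1 and NARS1 rose, AARS1 and CARS1 fell, and GARS1 and TARS1 were not called. YARS2 fell at both times. Spelled out, the match was TGATGCAA in AARS1, CARS1, IARS1, NARS1 and TARS1, TGATGAAA in GARS1 and TGATGGAA in YARS2. A match is a description of letters and not of binding.

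For the mitochondrial members 2 other motifs were searched on both strands. The E-box CACGTG was present in the promoters of CARS2, EARS2 and MARS2 of the 13 mitochondrial members and of IARS1 of the 14 cytosolic members, and in 8.77% of genes. The letters GCGCATGC, the core of the element for nuclear respiratory factor 1, were present for MARS2 and YARS2 and for 0 of the 14 cytosolic members, and in 3.68% of genes. The promoters of the 2 members with the largest falls at 24 h are given, MARS2 (chr2:197705119-197705418, plus strand) and PARS2 (chr1:54764474-54764773, minus strand), in the direction of the gene. In MARS2 the capitals mark the GCGCATGC match, which is read on both strands with an overlap, and the CACGTG match. The PARS2 window holds none of these letters.
MARS2: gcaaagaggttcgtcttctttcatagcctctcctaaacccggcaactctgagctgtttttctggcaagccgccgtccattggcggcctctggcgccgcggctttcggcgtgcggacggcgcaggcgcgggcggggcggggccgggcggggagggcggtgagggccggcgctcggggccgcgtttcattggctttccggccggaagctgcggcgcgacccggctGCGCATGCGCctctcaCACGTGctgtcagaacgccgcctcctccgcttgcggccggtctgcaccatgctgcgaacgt
PARS2: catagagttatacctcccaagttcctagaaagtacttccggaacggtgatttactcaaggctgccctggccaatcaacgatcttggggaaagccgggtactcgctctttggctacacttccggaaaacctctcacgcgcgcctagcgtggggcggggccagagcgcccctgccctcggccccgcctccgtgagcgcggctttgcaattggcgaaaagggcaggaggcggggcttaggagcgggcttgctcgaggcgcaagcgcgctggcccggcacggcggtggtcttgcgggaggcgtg

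HARS1 and HARS2 lie head to head on chromosome 5, with starts 85 bases apart and promoter windows that share 184 bases. Their changes were -0.33 ± 0.07 and 0.02 ± 0.09 at 12 h, and -0.10 ± 0.07 and 0.02 ± 0.09 at 24 h. The difference between the 2 genes did not overlap between HFM and GM at either time, with gaps of -0.36 ± 0.06 and -0.12 ± 0.04. How often this holds for pairs of other genes was not computed. The two-sided exact permutation test gave p = 0.1 at each time.

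Genes around the synthetases were read from lists by role. In tRNA maturation and export, 1 of 14 genes tested rose and 11 fell at 24 h, with a median of -0.32, against 20.6% of all genes called higher and 37.5% lower, and with each array centred 2 rose and 8 fell, against 37.0% and 26.2%. These shares of all genes are the background for the lists that follow as well. ELAC1, a nuclease of the 3' end of transfer RNA, had a mean of 5.96 in GM and of 2.93 in HFM, where all 3 arrays were under log2 4, and with HFM set at that level it was at least 3.89-fold lower (limma adjusted p = 4.3e-07 for the measured difference). With the mean of its probe sets the measured difference was -1.87 in place of -3.03. TRMT10C, a subunit of mitochondrial RNase P, fell by 2.67 ± 0.05, and POP1, a subunit of nuclear RNase P, by 1.81 ± 0.09 (limma adjusted p = 2.5e-11 and 1.2e-08). At 12 h 4 of the 14 rose and 5 fell, and TRMT10C was among those that rose, by 0.51 ± 0.05. Over all genes 28.9% were called higher and 33.0% lower at 12 h, the background for the 12 h counts of the next lists as well.

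Of the mitochondrial translation factors 1 of 9 tested rose and 6 fell at 24 h, with a median of -0.40, and with each array centred 2 rose and 5 fell. In both, the shares that fell were above those of all genes, 37.5% and 26.2%. MTRFR, which frees stalled mitochondrial ribosomes, fell by 2.32 ± 0.10 (limma adjusted p = 3.5e-09), and stood at -1.66 with the mean of its probe sets. The release factor MTRF1L fell by 1.02 ± 0.08 on its strongest probe set, while the mean of its probe sets stood at 0.14 and was called higher. TSFM, the elongation factor Ts of mitochondria, fell by 0.79 ± 0.07 (limma adjusted p = 8.6e-07), and stood at -0.35 with the mean of its probe sets. At 12 h 4 rose and 2 fell. In cytosolic elongation 1 of 4 genes tested rose and 1 fell at 24 h. EEF2, the elongation factor that moves the ribosome along, rose by 0.24 ± 0.05, and its kinase EEF2K fell by 1.05 ± 0.06.

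Enzymes that act on charged transfer RNA had mixed calls, with 1 of 8 tested higher and 3 lower at 24 h and 4 higher and 1 lower at 12 h. With each array centred 3 were higher and 3 lower at 24 h. SEPSECS, which makes selenocysteine on its transfer RNA, rose by 1.68 ± 0.12 at 24 h on its strongest probe set, while the mean of its probe sets stood at 0.05 and was not called. PSTK, the kinase before it in that pathway, fell by 1.02 ± 0.07 (-0.58 with the mean of its probe sets), and MTFMT, which formylates the initiator methionine of mitochondria, by 0.71 ± 0.06 (limma adjusted p = 1.5e-07 and 8.6e-07).

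**Figure D5:**
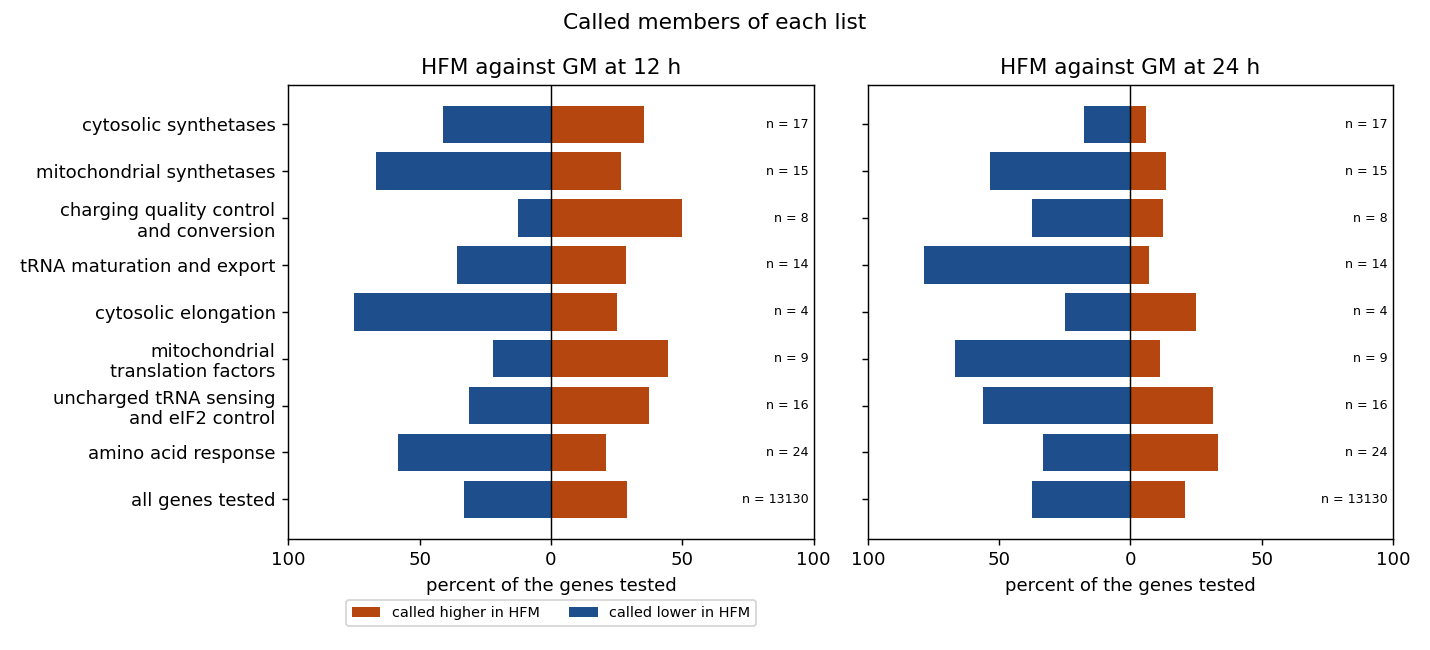
Percent of tested genes called higher (right of 0) and lower (left of 0) in HFM at 12 h (left panel) and 24 h (right panel) for the synthetases, the lists of related genes and all genes tested, with the number of genes tested beside each bar. At 24 h 53.3% of mitochondrial and 17.6% of cytosolic synthetases were called lower, against 37.5% of all genes.

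Genes that sense uncharged transfer RNA and control eIF2 had 5 of 16 tested higher and 9 lower at 24 h, with a median of -0.16. With each array centred they were 5 higher and 6 lower with a median of 0.02. EIF2AK4, the sensor itself, was at 0.12 ± 0.10 at 12 h and -0.02 ± 0.10 at 24 h, not called, although the mean of its probe sets was called higher at 24 h (0.84). Its activator GCN1 fell by 0.71 ± 0.06 at 24 h, and EIF2AK3, the eIF2 kinase of the endoplasmic reticulum, rose by 0.74 ± 0.06, or by 0.41 with the mean of its probe sets. PPP1R15A, which directs the phosphatase of eIF2, rose by 2.20 ± 0.07 at 24 h (limma adjusted p = 4.5e-10). At 12 h it was called lower, at -0.29 (limma adjusted p = 0.0038). The ATF4 transcript was at -0.05 ± 0.06 at 12 h and -0.16 ± 0.06 at 24 h (limma adjusted p = 0.036), and with each array centred it was at 0.02 at 24 h and not called.

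Genes of the amino acid response were split at 24 h, with 8 of 24 tested higher and 8 lower. With each array centred 12 were higher and 5 lower. At 12 h 5 were higher and 14 lower (median -0.28), against 28.9% and 33.0% of all genes. With each array centred these counts were 5 and 15, against 28.2% and 36.6%. DDIT3, which encodes the stress factor CHOP, rose by 1.12 ± 0.09 at 12 h and 3.22 ± 0.09 at 24 h (limma adjusted p = 1.1e-06 and 1.4e-10). ATF3 rose by 2.11 ± 0.09 and STC2 by 1.67 ± 0.07 at 24 h, and with the mean of the probe sets these rises were 1.21 and 0.84. ASNS, which makes asparagine, was at -0.13 ± 0.05 at 12 h (limma adjusted p = 0.042), a call lost with the mean of its probe sets (-0.10), and rose by 0.49 ± 0.05 at 24 h (limma adjusted p = 3.9e-06), or by 0.32 with the mean of its probe sets. At the same 24 h, none of the cytosolic synthetases AARS1, CARS1, GARS1, IARS1, NARS1 and TARS1 with the core match in their promoters was called higher, against 20.6% of all genes. With each array centred AARS1, CARS1, GARS1, IARS1 and NARS1 were, by 0.12 to 0.30. At that setting 10 of all 17 cytosolic members and 37.0% of all genes were called higher. TARS1 was called higher with the mean of its probe sets (0.61). Whether the match has a part in these calls was not tested.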

How the data were processed

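Total RNA of Sk-hep1 cells was measured on 12 arrays of 54675 probe sets. The deposited values are log2 expression made by the authors with GCRMA, a method of background correction, normalisation and summary of probes, per the submitters' processing notes. Those notes name no version used here. By the platform annotation 41097 probe sets carry 1 symbol, 1801 several and 11777 none, and only those with 1 were used. Entrez identifiers of 41043 probe sets matched the reference, and 0 symbols changed. Array medians lay between 4.05 and 4.09, and the number of arrays limits the precision.

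A model of 4 group means was fitted to the 12 arrays over 13130 genes with limma 3.58.1 in R 4.3.3 (lmFit, eBayes), with Benjamini-Hochberg adjustment over all genes. Log2 changes carry standard errors, with 3 arrays per group. Pairs of enzymes were compared with exact permutation tests (scipy 1.17.1, Python 3.11.15), and figures were drawn with matplotlib 3.10.9. The fit was tested on simulated data with independent noise and 200 genes changed in HFM at 24 h. Far more genes were called in the real data, so that test does not check the counts given here.

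The members and lists were chosen with earlier results of these data known. Array values were given for called members with the greatest changes, up to 5 per compartment at 24 h and 3 at 12 h and for the difference between times, and up to 3 called genes of each related list were named, with ATF4, EIF2AK4, DDIT3 and ASNS in any case. Other genes that are named, such as AIMP1, were chosen after their values were seen.

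Alternatives were no filter or log2 6, averaged probe sets per gene, leaving out probe sets with IDs ending in _x_at or _s_at, a repeated quantile normalisation, centring each array, fits of the compared groups alone, robust and trended variances, a replicate block and leaving out each array. A fit of all probe sets and a term for the hybridisation controls were added after seeing the data.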

Additional observations from a re-analysis of the deposited data

Results flagged for a closer look

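The HFM effect at 24 h minus that at 12 h, tested within the model with limma over all genes (adjusted p under 0.05), differed for 18 of the 32 members, 8 of them cytosolic. The difference was below 0 for 14 of them, 43.8% of the members, and above 0 for 4, or 12.5%. Over all genes tested 33.4% were called lower and 19.4% higher. With the filter raised to log2 6 these shares were 42.8% and 20.1%. It was -1.79 for PARS2, -0.81 for MARS2, -0.71 for WARS2, -0.57 for RARS1 and -0.54 for TARS1. It was -0.49 for NARS2, -0.45 for FARSB, -0.45 for RARS2, -0.34 for NARS1 and -0.32 for EPRS1. Smaller differences were -0.30 for FARS2, -0.26 for YARS2, -0.24 for IARS1 and -0.17 for IARS2. Above 0 it was 0.29 for CARS1, 0.43 for VARS2, 0.51 for YARS1 and 0.58 for LARS2. For 52.8% of all genes tested the effect differed between times, so the count of 18 of 32 members was near the background. Centring each array took the calls of EPRS1 (-0.12), NARS1 (-0.14), FARS2 (-0.10), IARS1 (-0.04), IARS2 (0.03) and YARS2 (-0.06). With the mean of probe sets FARS2 (-0.08), RARS2 (-0.20) and CARS1 (0.24) lost theirs and TARS1 turned to 0.36, and YARS1 (0.16) lost its call without probe sets ending in _s_at. The calls of YARS2 and IARS2 were lost in most fits that left out 1 array, and that of VARS2 without HFM replicate 2 of 12 h (0.36, limma adjusted p = 0.051).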

How the results depend on the processing

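Of the counts and medians by compartment over all comparisons and alternatives, 433 values stayed within the tolerance and 71 moved. Those of single members kept direction and call in 1489 cases, gained a call in 71, lost it in 75 and turned in 11. With each array centred, cytosolic members called higher at 24 h were 10, mitochondrial 5, and the medians 0.13 and -0.06. Of all genes 37.0% were then called higher and 26.2% lower at 24 h. For the difference between times 9 cytosolic members were higher and 3 lower with a median of 0.22. Of the mitochondrial members 5 were lower, with a median of -0.06. All genes stood at 38.6% higher and 23.9% lower (median 0.16). For HFM over time 9 cytosolic members were higher (median 0.13), and 2 mitochondrial members were higher and 7 lower (median -0.17). All genes stood at 39.1% higher and 28.9% lower (median 0.10). After quantile normalisation the values were 2 cytosolic members higher at 24 h (median -0.02). For the difference they were 7 cytosolic higher (median 0.06) and 5 mitochondrial lower (median -0.11). For HFM over time they were 2 mitochondrial higher and 7 lower (median -0.20). All genes at this setting were 29.8% higher and 30.9% lower at 24 h. They were 28.6% and 27.6% for the difference, and 30.8% and 33.5% for HFM over time. With probe sets averaged per gene the cytosolic median was 0.12 at 12 h, and 0.00 at 24 h with 3 higher and 1 lower. It was 0.14 for the difference (4 higher), 0.04 for GM over time and 0.06 for HFM over time (5 higher). The medians of all genes were then -0.05, -0.07, -0.02, -0.10 and -0.11 in the same order. Of all genes 23.2% were higher and 38.2% lower at 24 h. The share higher was 21.8% for the difference and 21.7% for HFM over time. Without probe sets ending in _x_at or _s_at, which left 11 cytosolic members, 2 were higher at 12 h (median -0.18) and 0 at 24 h. For the difference 1 was higher and 3 lower (median 0.16), 3 rose over time in GM (median -0.20) and 1 in HFM, and 1 mitochondrial member was higher at 24 h. That last count was also 1 with no filter, where 13.6% of all genes were higher. Without these probe sets 31.4% of all genes were higher at 12 h (median -0.04) and 21.9% at 24 h. For the difference 18.9% of all genes were higher and 34.2% lower (median -0.05). Over time 31.3% of all genes rose in GM (median -0.09) and 21.3% in HFM. The robust trended eBayes gave 4 cytosolic members with a higher effect at 24 h, with 19.3% of all genes called higher. With the term for the hybridisation controls 3 cytosolic (median 0.03) and 6 mitochondrial members (median -0.16) were lower at 12 h, and 1 cytosolic and 1 mitochondrial member had a higher effect at 24 h. Over time with this term 4 cytosolic (median 0.00) and 6 mitochondrial members (median -0.22) fell in GM, and 7 cytosolic members rose in HFM (medians -0.03 and -0.27). Whether the replicate numbers pair the arrays was not settled. Deviations of same-numbered arrays correlated from -0.17 to 0.42, and those of differently numbered arrays from -0.49 to 0.44. With 3 arrays per group these ranges cannot decide it. With the replicate block mitochondrial members called higher at 24 h were 1, with 21.1% of all genes called higher, while other counts moved by less than 1.5 times. Leaving out each array gave 3 to 5 cytosolic members lower and 1 to 2 mitochondrial higher at 24 h. Of all genes 33.9% to 35.9% were then lower and 18.7% to 19.0% higher. It gave 2 to 7 cytosolic (median -0.01 to 0.10) and 1 to 3 mitochondrial members with a higher effect at 24 h, against 16.6% to 26.0% of all genes. Over time in HFM 2 to 7 cytosolic members were higher, against 17.9% to 21.8% of all genes (medians -0.14 to -0.03, and -0.46 to -0.27 for mitochondrial). The 11 cases that turned were, with the mean of probe sets, SARS1 (0.12 at 12 h, 0.26 at 24 h) and TARS1 (0.61 at 24 h, 0.36 for the difference). Without the probe set types YARS1 was at 0.13 at 12 h, and without HFM replicate 1 HARS2 was at -0.12. With each array centred AARS1 was at 0.13, IARS1 at 0.12, KARS1 at 0.17 and WARS2 at 0.14 at 24 h, and IARS2 at 0.03 for the difference. Fewer probe sets or arrays are part of some settings, and otherwise the cause was not tested.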

Other observations

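Of the mitochondrial members the 6 class II enzymes, AARS2, FARS2, HARS2, NARS2, PARS2 and SARS2, and the 9 class I enzymes were counted apart at 24 h. Class II enzymes are those whose catalytic fold is built on an antiparallel sheet. In HFM 5 of the 6 fell and 0 rose, with a median log2 change of -0.67, while of the 9 class I enzymes 3 fell and 2 rose, with a median of -0.08, against 37.5% of all genes called lower and 20.6% higher. At 12 h the share that fell was 66.7% in both classes, against 33.0% of all genes. With each array centred 4 of the 6 were lower and 1 higher (median -0.49), and 3 of the 9 lower and 4 higher (median 0.10). With the centring 37.0% of all genes were called higher and 26.2% lower. In the cytosol 0 of 7 class I and 3 of 9 class II enzymes fell at 24 h. No test set the classes against each other, and they were compared after the values were seen.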
